A study of Homo sapiens with 8 samples.

Results

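The estrogen-related receptors and their coactivators were followed in RNA-Seq libraries of DU145 cells, a human prostate cancer cell line, with and without Esrrb expression and with and without the ligand DY131. The 10 genes were taken by symbol from the 23391 genes of the count table, and each was found as a single row. They are the 3 receptors ESRRA, ESRRB and ESRRG, the 3 coactivators of the PGC-1 family (PPARGC1A, PPARGC1B and PPRC1), the coregulator NRIP1 and the 3 p160 coactivators NCOA1, NCOA2 and NCOA3. The question was whether ESRRA and the PGC-1 or p160 coactivators are available in the cells where ESRRB is expressed.

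Estrogen-related receptors are orphan nuclear receptors that bind DNA at an extended half-site and regulate genes without a known natural hormone. Their activity is set largely by coactivators, above all PGC-1α and PGC-1β, the products of PPARGC1A and PPARGC1B, which drive mitochondrial and oxidative genes. The p160 proteins (SRC-1, SRC-2 and SRC-3, from NCOA1, NCOA2 and NCOA3) recruit histone acetyltransferases to nuclear receptors, while NRIP1 (RIP140) mostly represses them.

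There were 4 groups of 2 libraries, all from pools of stably transfected and Zeocin-selected DU145 cells kept in medium with charcoal-stripped serum. DU145-pc3.1 carried the empty vector pcDNA3.1-zeo (+), and DU145-Esrrb carried the Esrrb expression vector. Each pool was left untreated or was given 3 μM DY131, a synthetic ligand of both Esrrb and Esrrg. Inserts of this type of vector are driven by a strong viral promoter, so ESRRB here was an introduced transcript. Its isoform is not stated outright, but the headings of the untreated DU145-Esrrb count columns contain "Sfesrrb", and the vector is credited to the earlier work that is cited for a short splice form of Esrrb. The length of the treatment is not given in the sources used here. A pool mixes cells, so a larger share of cells with a transcript and more of that transcript per cell cannot be told apart.

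Gene counts summed to between 7858743 and 11551690 reads in a library, and the DY131-treated DU145-Esrrb libraries had the fewest. A level is given in cpm, the standard scaling of counts to a common library size (here the effective size), and a level per kilobase (kb) also divides by transcript length. As markers of the cell line, KRT8, KRT18, KRT19, EPCAM and CDH1 were between 62.3 and 1626 cpm in every library. Of markers of androgen-dependent prostate lines, TMPRSS2 had 0 or 1 read in each library, and KLK2 and KLK3 had 0. COL1A1 was at 2.74 to 5.70 cpm, while the other fibroblast markers and the 3 leukocyte markers had 0 to 2 reads in each library. The DY131-treated DU145-Esrrb libraries stood apart, in that their counts varied with exon structure. Each gene was given its junction share, which is the percentage of all 50-base stretches of the transcript that span exon boundaries. For DY131 in DU145-Esrrb cells, the 1367 genes lowest in junction share had a median log2 fold change (Log2FC) of 0.26, and the 1367 highest a median of -0.55. In DU145-pc3.1 cells the same medians were -0.03 and 0.00. Changes that rest on these libraries are therefore also given after a correction for this share. It was 1.96% for NRIP1, between 12.1% and 16.5% for ESRRA, ESRRB, PPARGC1B, PPRC1, NCOA1 and NCOA2, and 23.3% for NCOA3.

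Of the 3 receptors, ESRRA was between 41.1 and 44.6 cpm in all 8 libraries, ESRRB was above 1 cpm only in those with its vector, and ESRRG was at or near 0. ESRRB had 104 and 99 reads in DU145-Esrrb libraries and 3 and 0 reads in DU145-pc3.1 libraries. The ratio of their pooled levels was 65.6, with an exact 95% interval of 22.1 to 321 that covers counting error only. With DY131 the counts were 105 and 143 in DU145-Esrrb and 0 and 1 in DU145-pc3.1, so the levels went with the labels in every library. ESRRB (NM_004452, chromosome 14 of GRCh38 from 76310712 to 76501837 on the plus strand in GENCODE 29) passed the filter through the DU145-Esrrb libraries alone. It is therefore left out of the counts of members below. Positions here come from GRCh38, whereas the authors mapped to hg18.

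ESRRB itself rose with DY131 in the DU145-Esrrb pool, from 8.82 and 9.10 cpm to 13.7 and 16.2 cpm. The treated libraries were both above the untreated ones. The Log2FC was 0.74 (standard error 0.19, adjusted p = 0.00315), and 0.84 with the exon junction correction (adjusted p = 0.00109). Without library B of the treated cells it was 0.61 and no longer passed the test (adjusted p = 0.0723).

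ESRRA (NM_004451, chromosome 11 from 64305572 to 64316743, plus strand), the receptor most tied to oxidative metabolism, was at 41.9 and 41.1 cpm in DU145-pc3.1 and at 41.6 and 44.1 cpm in DU145-Esrrb libraries. In DY131-treated cells it was at 44.6 and 41.5 cpm in DU145-pc3.1 and at 44.6 and 42.0 cpm in DU145-Esrrb. The groups overlapped in every comparison. For Esrrb expression in untreated cells the Log2FC was 0.05 with a 95% interval of -0.12 to 0.22, and for DY131 in DU145-Esrrb cells it was 0.01 with an interval of -0.16 to 0.19. The latter was -0.05 when library totals replaced the effective sizes, so its sign is not determined. After correcting for length and GC content of the transcripts (64.1% GC in ESRRA), DY131 gave a Log2FC of 0.25 in DU145-pc3.1 (adjusted p = 0.0172) and of 0.37 in DU145-Esrrb cells (adjusted p = 0.000640). Of the 50-base windows of ESRRA, 18.7% also occur in transcripts of other genes, among them its pseudogenes ESRRAP1 and ESRRAP2, so its level is uncertain to that extent.

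ESRRG, the other receptor for DY131, had no read in 7 libraries and 1 read in library B of DY131-treated DU145-Esrrb cells. For the counts of 0, the Wilson intervals (95%) reached up to between 0.333 and 0.489 cpm of the library total. ESRRG was not detectable at this depth and was not tested.

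**Figure D1:**
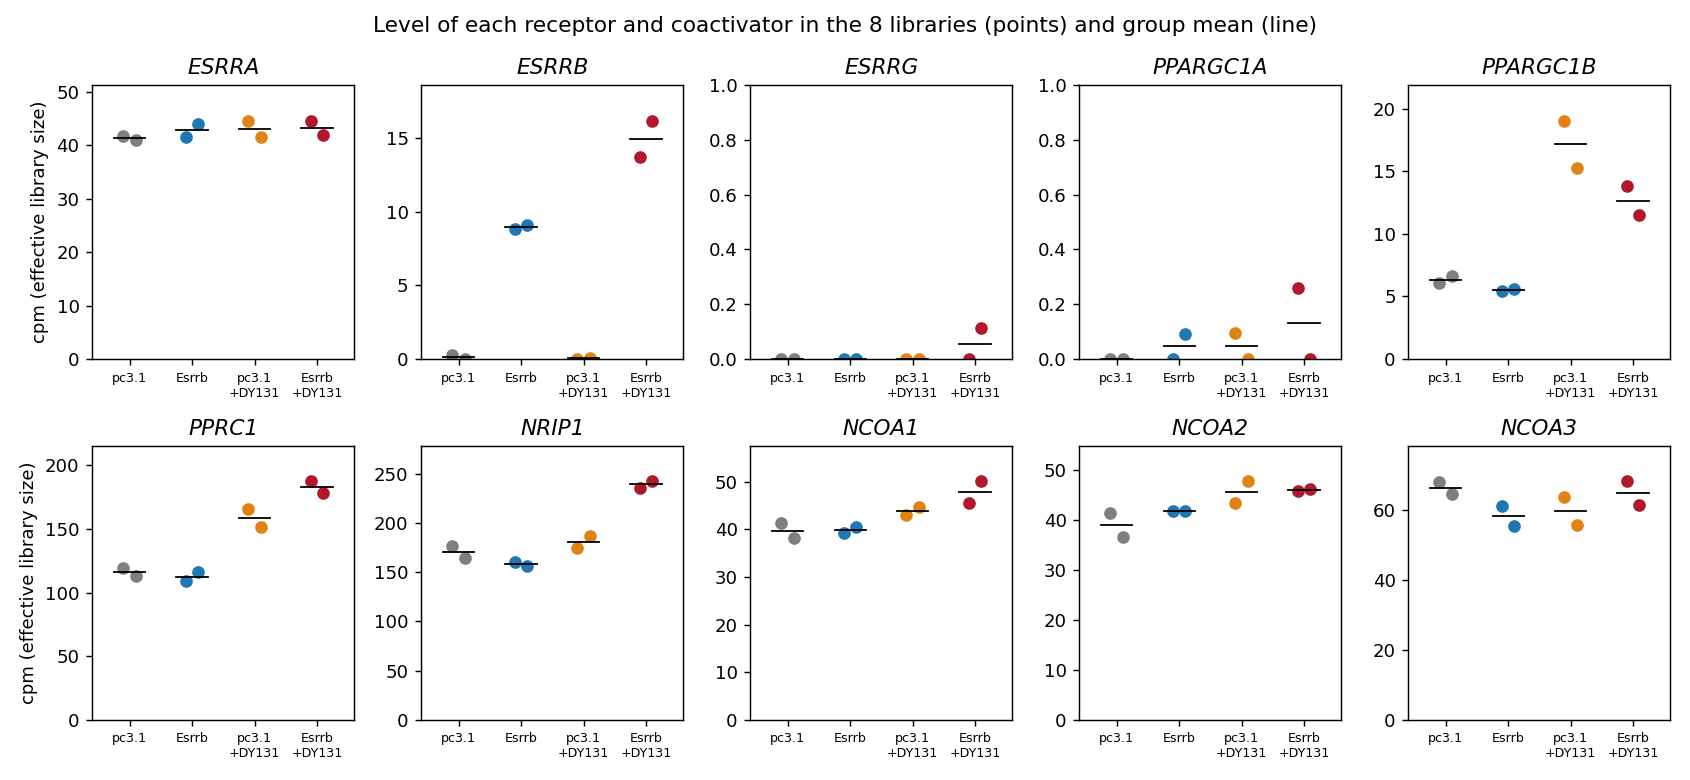
Each panel shows 1 gene in the 8 libraries, with the level in cpm of the effective library size on a linear axis that starts at 0, a point for each library and a line at the mean of the 2 libraries of a group. ESRRA lies between 41.1 and 44.6 cpm throughout, ESRRB is above 1 cpm only in the DU145-Esrrb groups, PPARGC1B and PPRC1 are higher in both DY131-treated groups, and NRIP1 is highest in DY131-treated DU145-Esrrb cells.

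In DU145-Esrrb cells, 8 of the 10 genes were at 1 cpm or more in both libraries: ESRRB, ESRRA, PPARGC1B, PPRC1, NRIP1 and the 3 p160 genes. PPARGC1A (NM_013261), which encodes PGC-1α, was not among them. It had 0 and 1 read in DU145-Esrrb and 2 and 0 reads in DY131-treated DU145-Esrrb libraries, against 0 and 0 in DU145-pc3.1 and 1 and 0 in DY131-treated DU145-pc3.1 libraries. Wilson intervals of these 8 counts reached up to between 0.333 and 0.928 cpm, so a level of 1 cpm lay above all of them.

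Levels of different genes were compared per kb of the transcript with the deposited RefSeq identifier. In untreated DU145-Esrrb cells, PPRC1 was at 21.1 ± 0.915 cpm per kb, NRIP1 at 21.0 ± 0.364 and ESRRA at 19.3 ± 0.814 cpm per kb (SD, n = 2). PPRC1 and NRIP1 overlapped between libraries, while both ESRRA libraries were below both of NRIP1 and of PPRC1. NCOA3 followed at 12.5 ± 0.844 cpm per kb, then NCOA1 at 5.78 ± 0.119 and NCOA2 at 4.96 ± 0.0004 cpm per kb. ESRRB was the 7th at 2.97 ± 0.0649 cpm per kb, and PPARGC1B the 8th at 1.84 ± 0.0418 cpm per kb. ESRRB was also the 7th with coding lengths for every gene, or with the longest transcript of every gene.

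The order of the highest genes was not the same with coding lengths, with which NRIP1 was at 45.6, ESRRA at 33.8 and PPRC1 at 22.5 cpm per kb. For PPARGC1B the length matters most, because the transcript with its RefSeq identifier spans 3004 bases and its longest one 10568 bases, which gave 0.522 cpm per kb. For ESRRB, an insert without the flanking parts of the natural mRNA would be shorter than the 3014 bases used. The coding length of NM_004452, 1524 bases, gave 5.88 cpm per kb. It need not be that of a short splice form, and a still shorter insert would give a higher level per kb. With that length for ESRRB alone, its libraries, at 5.79 and 5.97 cpm per kb, overlapped with NCOA1 (5.695 and 5.864) and were above NCOA2. The place of ESRRB below the p160 genes thus depends on the length of the insert, which is not known here.

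In transcript level, ESRRA was in excess of ESRRB wherever ESRRB was expressed. Per kb it was 6.41 and 6.60 times ESRRB in the untreated DU145-Esrrb libraries and 4.43 and 3.54 times ESRRB in the DY131-treated ones. With coding lengths these ratios were 5.66 and 5.82, and 3.91 and 3.12. With the longest transcripts they were 10.3 and 10.6, and 7.15 and 5.71. The excess was smaller with the RefSeq length for ESRRA and the coding length for ESRRB. These lengths gave means of 19.3 against 5.88 cpm per kb untreated and 19.55 against 9.79 after DY131. An ESRRB insert shorter than this coding length would make the excess smaller still. Receptor protein was not measured in these libraries. After DY131, ESRRB was at 4.95 ± 0.580 cpm per kb and PPARGC1B at 4.22 ± 0.539 cpm per kb (SD, n = 2), and their libraries overlapped. This depends on the length used, because with coding lengths ESRRB was at 8.98 and 10.6 and PPARGC1B at 3.90 and 4.68 cpm per kb, and with the longest transcripts both ESRRB libraries were again above both of PPARGC1B. NCOA2 was at 5.45 ± 0.0286 cpm per kb, above both ESRRB libraries, but with coding lengths it was at 10.4 and 10.5 cpm per kb and overlapped with ESRRB. With the coding length for ESRRB alone, both ESRRB libraries were above those of NCOA1 (6.61 and 7.26 cpm per kb) and of NCOA2.

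**Figure D2:**
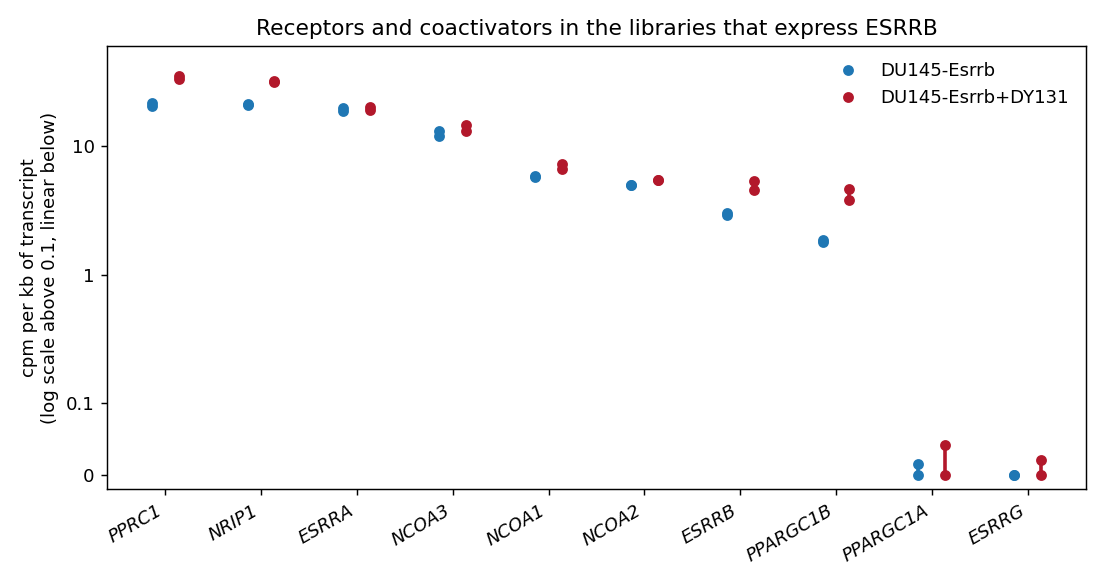
Levels in cpm per kb of the RefSeq transcript (log scale above 0.1, linear below) in the libraries of untreated and DY131-treated DU145-Esrrb cells, with a point for each library and a line from the lower to the higher. With RefSeq lengths, ESRRB, at 2.97 and 4.95 cpm per kb on average, lies below ESRRA, PPRC1, NRIP1 and the p160 genes. PPARGC1A and ESRRG are at or next to 0.

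The comparison of DU145-Esrrb with DU145-pc3.1 in untreated cells asked whether the introduced receptor goes with other levels of its partners. None of the 7 tested members other than ESRRB was called by edgeR's quasi-likelihood test at a Benjamini-Hochberg adjusted p under 0.05. By edgeR's exact test and by DESeq2 the number was also 0. Of all 13856 tested genes, 4.18% were called, 1.68% as higher and 2.5% as lower, so a count of 0 among 7 is near the background. At an unadjusted p under 0.05 there was 1 member, NCOA3, the gene of SRC-3, which is often amplified in cancers. It was at 68.0 and 64.3 cpm in DU145-pc3.1 and at 61.0 and 55.4 cpm in DU145-Esrrb libraries. The Log2FC was -0.18 (95% interval -0.36 to -0.005, adjusted p = 0.286).

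The other members had Log2FC values between -0.20 and 0.11 in this comparison, and their median with NCOA3 was -0.04, against 0.00 for all tested genes. PPARGC1B was at 6.10 and 6.60 cpm in DU145-pc3.1 and at 5.43 and 5.61 cpm in DU145-Esrrb libraries. Its libraries did not overlap, but the interval of the Log2FC, -0.61 to 0.20, held 0. For PPRC1 the interval was -0.19 to 0.10, for NRIP1 -0.23 to 0.03, for NCOA1 -0.17 to 0.18 and for NCOA2 -0.08 to 0.29.

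**Figure D3:**
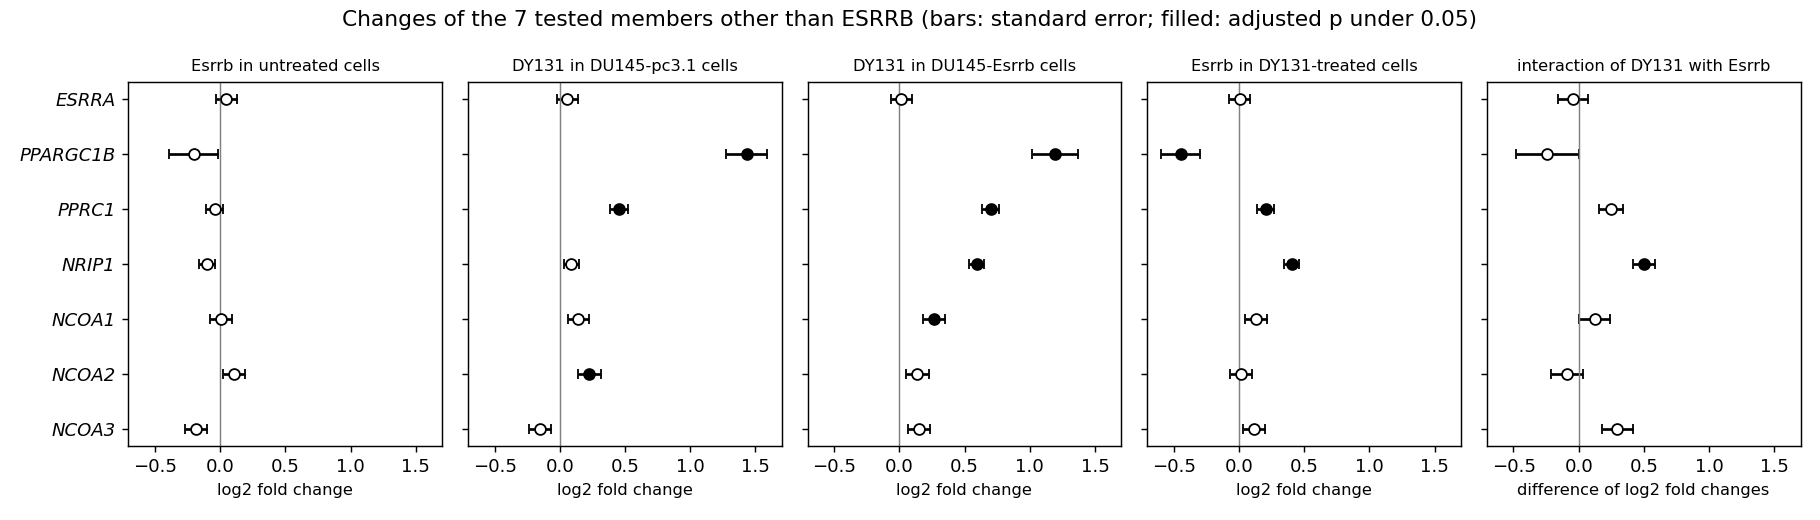
Log2 fold changes of the 7 tested members other than ESRRB in 5 comparisons, the last being the difference between the DY131 responses of the 2 pools. Bars are standard errors and filled points have an adjusted p under 0.05, which none reached for Esrrb in untreated cells, while PPARGC1B and PPRC1 did so for DY131 in both pools and NRIP1 in the 3 comparisons that rest on the DY131-treated DU145-Esrrb libraries.

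DY131 was given to DU145-pc3.1 cells, in which ESRRB had 0 to 3 reads and ESRRG none, as a control for effects without Esrrb. Of the 7 members, 3 were called, all of them higher: PPARGC1B, PPRC1 and NCOA2. Among all tested genes 37.4% were called in this comparison, 18.9% as higher and 18.5% as lower, so the share among the members (42.9%) is near the background. Their median Log2FC was 0.14, against 0.00 for all genes.

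PPARGC1B (NM_001172698, chromosome 5 from 149730298 to 149855022, plus strand), the gene of PGC-1β, changed the most. Its level was 6.10 and 6.60 cpm in untreated and 19.1 and 15.3 cpm in DY131-treated DU145-pc3.1 libraries. Both treated libraries were more than 2-fold above both untreated ones. The Log2FC was 1.43 (standard error 0.16, adjusted p = 7.54e-06), a fold change of 2.70. It was the only member past a 2-fold change as well as the test, which 4.19% of all genes passed.

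PPRC1 (NM_015062), the gene of the PGC-1-related coactivator that responds to growth signals, was at 119 and 112.9 cpm untreated and at 166 and 151 cpm after DY131. The groups did not overlap, and the Log2FC was 0.45 (standard error 0.07, adjusted p = 7.29e-05). NCOA2, the gene of SRC-2, was at 41.4 and 36.6 cpm untreated and at 43.4 and 47.8 cpm after DY131. Its Log2FC of 0.23 (standard error 0.08, adjusted p = 0.0475) lay at the threshold. NCOA2 was no longer called by DESeq2 (adjusted p = 0.176), with library totals (adjusted p = 0.0836), or with a correction for length and GC content (Log2FC 0.05). The call was also lost without any single library other than replicate 1 of either DU145-pc3.1 group. The lowest Log2FC was 0.14, without untreated DU145-pc3.1 replicate 2, and the adjusted p values ranged from 0.0607 to 0.345.

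ESRRA, NRIP1, NCOA1 and NCOA3 were not called. NRIP1 was at 176 and 164 cpm untreated and at 175 and 187 cpm after DY131, a Log2FC of 0.09 with an interval of -0.04 to 0.22. NCOA1, the gene of SRC-1, had a Log2FC of 0.14 with an interval of -0.03 to 0.32. NCOA3 had a Log2FC of -0.15 with an interval of -0.33 to 0.03, but without DY131-treated DU145-pc3.1 replicate 1 it was -0.24. With the correction for length and GC content NCOA3 was called as lower, at -0.21 (adjusted p = 0.047), so not every call among the members was higher under that setting.

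Since PPARGC1B and PPRC1 both rose with DY131, the RefSeq sequences before a start of each were read (GRCh38.p14, 250 bases up to the start, 5′ to 3′ on the gene's strand). They are shown to give the sequence at a start of each gene, with CCAAT in capitals, which the PPRC1 window does not hold. The PPARGC1B window, from 149771690 to 149771939, lies inside the gene, downstream of the gene's annotated start at 149730298. The sequence before that annotated start was not read, and which start the transcripts counted here used was not tested. The third is a stretch of 41 bases before an ESRRG start, shown because it holds the receptors' half-site, AAGGTCA, in capitals.
PPARGC1B (chr5:149771690-149771939, plus strand): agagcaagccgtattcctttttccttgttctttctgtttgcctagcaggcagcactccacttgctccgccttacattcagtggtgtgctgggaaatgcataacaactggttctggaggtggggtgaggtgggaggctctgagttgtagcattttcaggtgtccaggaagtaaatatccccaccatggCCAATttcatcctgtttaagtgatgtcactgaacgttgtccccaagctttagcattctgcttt
PPRC1 (chr10:102132790-102133039, plus strand): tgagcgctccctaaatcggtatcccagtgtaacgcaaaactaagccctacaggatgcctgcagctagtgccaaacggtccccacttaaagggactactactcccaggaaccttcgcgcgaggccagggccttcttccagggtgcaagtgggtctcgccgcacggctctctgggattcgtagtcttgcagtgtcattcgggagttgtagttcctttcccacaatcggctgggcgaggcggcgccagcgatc
ESRRG (chr1:217077030-217077070, minus strand): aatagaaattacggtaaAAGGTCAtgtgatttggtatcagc

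The motif AAGGTCA was searched on both strands in 23 such windows of 9 of the genes (NCOA2 was not searched). It was found in 1 window, 61 bases before an ESRRG start, and the shorter AGGTCA, which lies within it, in 2 windows, both of ESRRG. Among 35116 windows of all genes, 3.44% held AAGGTCA and 12.1% held AGGTCA. The box CCAAT was in 9 of the 23 windows and in 32% of all. No match says only that these letters are not in the window. For PPARGC1B the window inside the gene was the only window searched, so the absence of a match does not cover its annotated start.

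In DU145-Esrrb cells, DY131 went with higher levels of 4 of the 7 members, PPARGC1B, PPRC1, NRIP1 and NCOA1, and with no lower one. In this comparison 58.7% of all tested genes were called, 29.2% as higher and 29.5% as lower, and the share of the members called (57.1%) is near that background. The median Log2FC of the 7 members was 0.27, against 0.00 for all genes. With the exon junction correction 5 members were called, all higher, with NCOA3 as the fifth, while 54.9% of the 13664 genes that could be corrected were called, 33.1% as higher and 21.8% as lower.

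PPARGC1B rose from 5.43 and 5.61 cpm to 13.8 and 11.5 cpm. Each treated library was more than 2-fold above both untreated ones, as in the control pool. The Log2FC was 1.19 (standard error 0.18, adjusted p = 3.44e-05), and 1.29 with the exon junction correction. It was again the only member past 2-fold and the test, which 12% of all genes passed.

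PPRC1 went from 109 and 116 cpm to 187 and 178 cpm, without overlap. Its Log2FC was 0.70 (standard error 0.07, adjusted p = 3.58e-07), and 0.71 with the correction. NRIP1 (NM_003489, chromosome 21 from 14961235 to 15065936, minus strand) went from 160 and 157 cpm to 236 and 242 cpm, its highest level in any group. The Log2FC was 0.59 (standard error 0.06, adjusted p = 7.29e-07). NRIP1 has few exon junctions, and genes with such a share (under 2.83%) had a median of 0.26 in the same comparison. With the correction its Log2FC was 0.48 (adjusted p = 7.38e-06).

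NCOA1 was at 39.3 and 40.4 cpm untreated and at 45.6 and 50.1 cpm after DY131. Its libraries did not overlap, and its Log2FC was 0.27 (standard error 0.08, adjusted p = 0.0127), and 0.33 with the exon junction correction (adjusted p = 0.00350). The call was lost by DESeq2 (adjusted p = 0.0716), with a correction for length and GC content (Log2FC 0.13), without DU145-Esrrb replicate 1 (0.24) and without library B of the treated cells (0.19). NCOA2 was at 41.9 and 41.9 cpm and then at 45.9 and 46.2 cpm, with an interval of the Log2FC from -0.05 to 0.32. NCOA3 was at 61.0 and 55.4 cpm and then at 68.0 and 61.3 cpm. Its Log2FC was 0.15 (adjusted p = 0.152), and 0.37 with the correction (adjusted p = 0.00154), a larger shift than in any other tested member.

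**Figure D4:**
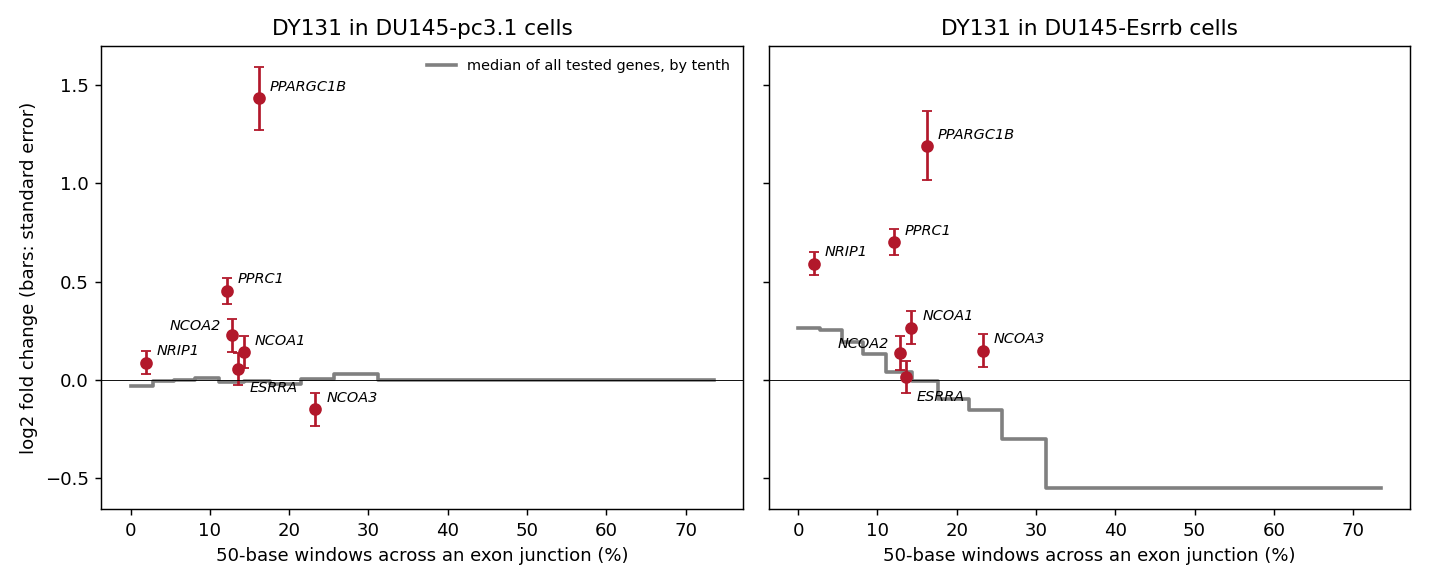
Log2 fold change for DY131 in each pool against the share of 50-base windows of a transcript that cross an exon junction, in percent. Grey steps are medians of all tested genes in 10 classes of this share, and red points are the 7 members with standard errors. The medians stay between -0.03 and 0.03 in DU145-pc3.1 cells and fall from 0.26 to -0.55 in DU145-Esrrb cells, where NRIP1, at 1.96%, lies in the class with the highest median.

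With DY131 present in both pools, DU145-Esrrb and DU145-pc3.1 cells were compared again. Of the 7 members, 3 were called: NRIP1 and PPRC1 as higher and PPARGC1B as lower in DU145-Esrrb cells. Of all tested genes 50.4% were called, 25.1% as higher and 25.3% as lower, against 42.9% of the members. With the exon junction correction 4 members were called, with NCOA3 as the fourth, and 40.4% of all genes, 23.8% as higher and 16.6% as lower. Without library B of the treated DU145-Esrrb cells only NRIP1 was called among the members. The median of the 7 was 0.12, against 0.01 for all genes.

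NRIP1 was at 175 and 187 cpm in DU145-pc3.1 and at 236 and 242 cpm in DU145-Esrrb libraries with DY131. These groups did not overlap, and the Log2FC was 0.40 (standard error 0.06, adjusted p = 4.94e-05), while the 1367 genes lowest in junction share had a median of 0.33. The call held without each library in turn, and with the exon junction correction the Log2FC was 0.23 (adjusted p = 0.00662).

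PPARGC1B was at 19.1 and 15.3 cpm in DU145-pc3.1 and at 13.8 and 11.5 cpm in DU145-Esrrb libraries with DY131, a Log2FC of -0.45 (standard error 0.15, adjusted p = 0.0215). With the exon junction correction it was -0.39 (adjusted p = 0.0474). It was not called by DESeq2 (adjusted p = 0.131), without treated DU145-pc3.1 replicate 1 (-0.29, adjusted p = 0.142) or without library B of the treated DU145-Esrrb cells (-0.32, adjusted p = 0.201).

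PPRC1 had a Log2FC of 0.20 (standard error 0.06, adjusted p = 0.0164), with 166 and 151 against 187 and 178 cpm. The call was lost with only the libraries compared (0.17), without treated DU145-pc3.1 replicate 2 (0.14), without library A (0.16) and without library B (0.23) of the treated DU145-Esrrb cells. ESRRA, with a Log2FC of 0.00 and an interval of -0.17 to 0.18, and the 3 p160 genes were not called. Of these, NCOA3 was at 0.12, and at 0.31 with the exon junction correction (adjusted p = 0.00837).

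Whether the response to DY131 differed between the pools was tested as an interaction, which shares all libraries with the comparisons above. Of the 7 members 1 was called, NRIP1, as higher. Among all genes 33.7% were called, 16.1% as higher and 17.6% as lower. The share among the members was 14.3%. For NRIP1 the response was 0.50 larger on the log2 scale in DU145-Esrrb than in DU145-pc3.1 cells (standard error 0.08, adjusted p = 0.000364), where the 1367 genes lowest in junction share had a median of 0.31. With the exon junction correction it was 0.34 (adjusted p = 0.0112), and 2 members were then called, against 23.5% of all genes, 13.5% as higher and 10% as lower.

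The responses of PPARGC1B differed by -0.24, with an interval of -0.76 to 0.28, so it could not be told whether the response was smaller in DU145-Esrrb cells. For PPRC1 the difference was 0.25 (adjusted p = 0.0525) and for NCOA3 0.30 (adjusted p = 0.0686), both with unadjusted intervals above 0. Without treated DU145-pc3.1 replicate 1 both were called, at 0.30 (adjusted p = 0.00533) for PPRC1 and 0.38 (adjusted p = 0.00760) for NCOA3. With the exon junction correction NCOA3 was at 0.49 (adjusted p = 0.00742) and PPRC1 at 0.21 (adjusted p = 0.120). For ESRRA the interval was -0.29 to 0.20.

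Beyond these genes, 19 other cofactors of estrogen-related receptors or of PGC-1 were looked at, 17 of which were tested. NR0B2 and PROX1, both corepressors, did not pass the filter. HDAC3, a histone deacetylase of corepressor complexes, was the only one called for Esrrb in untreated cells, at -0.37 (standard error 0.08, adjusted p = 0.0111), which makes 5.88% of the list against 4.18% of all genes. By DESeq2 it was not called (adjusted p = 0.0549). It was at 59.9 and 65.3 cpm in DU145-pc3.1 and at 48.4 and 48.6 cpm in DU145-Esrrb libraries, and the call was also lost without DU145-pc3.1 replicate 2 (-0.30), without DU145-Esrrb replicate 1 (-0.36) or without DU145-Esrrb replicate 2 (-0.37). Leaving out replicate 1 or replicate 2 of DY131-treated DU145-pc3.1 cells gave 2 called cofactors. For DY131 in DU145-pc3.1 cells 6 rose and 3 fell (52.9%, against 37.4% of all genes). Among the largest were the nuclear receptor coactivator PNRC1 (-0.85) and the corepressor subunit TBL1X (-0.51). The median of the list was 0.15, against 0.00 for all genes.

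For DY131 in DU145-Esrrb cells 6 cofactors rose and 7 fell (76.5%, against 58.7% of all genes), or 7 and 4 with the exon junction correction (64.7% against 54.9%). The largest changes were in NR0B1 (DAX1, a corepressor), PNRC1 and PNRC2. NR0B1 went from 2.63 and 1.75 cpm to 0.651 and 1.02 cpm, a Log2FC of -1.37 (standard error 0.44, adjusted p = 0.0146), which was lost by DESeq2 (adjusted p = 0.0747), without DU145-Esrrb replicate 1 (-1.04) or without library A of the treated cells (-1.11). PNRC1 changed by -0.60 and PNRC2 by 0.50. With the exon junction correction the values were -1.49 for NR0B1, -0.73 for PNRC1 and 0.33 for PNRC2, all still called. For Esrrb in DY131-treated cells 3 were higher and 5 lower (47.1%, against 50.4% of all genes), led by HDAC3 (-0.81), the acetyltransferase KAT2A (-0.59) and the deacetylase SIRT1 (0.43). The corrected counts were 2 and 2 (23.5% against 40.4%), and HDAC3 was at -0.24, KAT2A at -0.30 and SIRT1 at 0.34. Without library B 5 cofactors were called in all. In the interaction 2 were higher and 3 lower (29.4%, against 33.7% of all genes). After the correction 0 were called by the same edgeR test, against 23.5% of all genes (4 by DESeq2 without it). In all 3 were called without DU145-Esrrb replicate 1 or library B, and 9 without treated DU145-pc3.1 replicate 2.

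Of 25 genes known as targets of estrogen-related receptors or PGC-1, 20 were tested, and UCP3, LTF, TFF1, MAOB and CYP19A1 did not pass the filter. For Esrrb in untreated cells 2 were called (10%, against 4.18% of all genes), both lower: KLF4, a transcription factor of stem cells and epithelia, and VEGFA, the angiogenic growth factor. KLF4 was at 17.1 and 14.8 cpm in DU145-pc3.1 and at 9.24 and 9.56 cpm in DU145-Esrrb libraries, a Log2FC of -0.76 (standard error 0.14, adjusted p = 0.00445). Its call was lost without replicate 1 of DU145-pc3.1 (-0.65) or of DU145-Esrrb (-0.73). That of VEGFA (-0.32, adjusted p = 0.0251) was lost without any single library outside the DY131-treated DU145-pc3.1 group, with values from -0.36 to -0.27. The list thus had 0 called genes without replicate 1 of either untreated pool, and 1 without replicate 2 of either or without library A or B.

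For DY131 in DU145-pc3.1 cells 5 targets rose and 3 fell (40%, against 37.4% of all genes). The largest were PDK4 (-1.20), which restrains pyruvate oxidation, VEGFA (-0.62) and IDH3A (0.46), a subunit of a citric acid cycle enzyme. Leaving out replicate 1 or replicate 2 of untreated DU145-pc3.1 cells gave 5 calls in all. For DY131 in DU145-Esrrb cells 7 rose and 8 fell (75%, against 58.7% of all genes), or 6 and 7 with the exon junction correction (65% against 54.9%). SDHB, a subunit of succinate dehydrogenase, went from 68.9 and 71.9 cpm to 20.9 and 26.7 cpm, a Log2FC of -1.56 (standard error 0.11, adjusted p = 1.43e-08). COX5B, a cytochrome c oxidase subunit, changed by -1.04. CDKN1A, the cell cycle inhibitor p21, went from 56.1 and 51.2 cpm to 113 and 117 cpm, a Log2FC of 1.10 (standard error 0.09, adjusted p = 7.13e-08). With the correction these were -1.14 for SDHB, -0.84 for COX5B and 0.92 for CDKN1A, all still called.

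For Esrrb in DY131-treated cells 1 target was higher and 6 were lower (35%, against 50.4% of all genes), led by SDHB (-1.63), COX5B (-0.93) and CPT1B (-0.74), a carnitine transferase of fatty acid oxidation. The corrected counts were 3 and 4 (35% against 40.4%), and the corrected values were -1.23 for SDHB, -0.76 for COX5B and -0.16 for CPT1B, which was then not called. CPT1B was also not called by DESeq2 (adjusted p = 0.0673) or without treated DU145-pc3.1 replicate 1 (-0.38), library A (-0.73) or library B (-0.76). In the interaction 3 were higher and 5 lower (40%, against 33.7% of all genes), or 3 and 4 with the correction (35% against 23.5%). Genes of this list thus moved in both directions in every comparison but that of Esrrb in untreated cells. Its medians were between -0.17 and 0.02.

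As a description, the tested genes whose pattern over the 4 group means was nearest to that of ESRRB were ZCWPW2, FGB and PEG3. The root mean square difference of the centred log2 cpm was 0.77, 1.28 and 1.46. ZCWPW2, a histone reader, had group means of 1.33 cpm in DU145-pc3.1, 49.7 in DU145-Esrrb, 1.19 in treated DU145-pc3.1 and 23.6 in treated DU145-Esrrb cells. Unlike ESRRB, it was lower in the treated than in the untreated DU145-Esrrb group. FGB, fibrinogen beta chain, had means of 2.38, 9.26, 0.954 and 17.8 cpm in the same order. Of the windows of ZCWPW2, 32.2% occur in another gene, and of those of the imprinted gene PEG3 12.8%, all in its neighbour ZIM2. The nearest to ESRRA were CNIH, CRTC2 and GTF3C2, each at 0.01, but 1882 tested genes were within 0.1 of it, so many genes with little change lie near it.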

How the data were processed

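RNA of 8 DU145 libraries (4 groups of 2 biological replicates) was made into stranded libraries that shared 1 lane of single-end sequencing (50 bases). Raw counts per gene, whole numbers without normalization, were deposited by the authors after trimming and TopHat2 mapping to hg18. The submitters' notes name edgeR. How reads of several genes or strands were counted is not given in the sources used here. Of the table's symbols 28 look like dates, none of them a gene named here. Columns were assigned by their labels. The DY131-treated DU145-Esrrb columns share a heading and are called libraries A and B. The study calls the replicates biological, and independent where it describes the untreated pools. Whether the DY131-treated libraries came from those cultures is not said, so p values measure the spread between these libraries, which may be partly technical.

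The members, both gene lists and the alternatives were chosen with earlier results of these data known. The text names the 10 members, the called genes of each list with the 3 largest changes in a comparison, and the 3 genes nearest in pattern to ESRRB and to ESRRA. Some genes of the lists are counted but not reported by name here. The filter on low counts asked for 1 cpm in 2 or more libraries (13856 genes, 8 members). Counts were compared with edgeR 4.0.16 in R 4.3.3 by the quasi-likelihood F test with TMM factors, all libraries in 1 model of 4 groups, with p values adjusted by Benjamini-Hochberg across all 13856. Called means an adjusted p below 0.05. Every adjusted p is from this test unless DESeq2 is named. Intervals of Log2FC use the standard error and the degrees of freedom of the fit. Depth limits low genes, and Wilson and exact intervals cover counting error only.

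Transcript lengths, GC content, exon junction windows and shared windows come from GENCODE 29 on GRCh38 (RefSeq identifiers gave 22018 matches, symbols 721 and older symbols 135, which left 517 genes), with values for 98.6% of the tested genes. Corrections were offsets from a spline with 5 degrees of freedom. Promoter sequences are from RefSeq, and proteins were not used here. The fits were tested on simulated counts. Alternatives were edgeR's exact test, DESeq2 1.42.0, other scaling and filters, only the libraries compared, leaving out each library, both corrections and a replicate block. They were run on the list genes too, a choice made after the data were seen.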

Additional observations from a re-analysis of the deposited data

Results flagged for a closer look

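In 7 genes the response to DY131 differed between DU145-Esrrb and DU145-pc3.1 cells by the interaction term of edgeR's quasi-likelihood test, in which 33.7% of all tested genes were called. The differences of the Log2FC were 0.50 for NRIP1, -0.44 for KAT2A, -0.44 for HDAC3, -0.37 for CARM1 (an arginine methyltransferase that acts with the p160 proteins), -1.58 for SDHB, 0.89 for KLF4 and -0.81 for COX5B. Those of NRIP1 (adjusted p = 0.000364), SDHB (adjusted p = 1.05e-06), KLF4 (adjusted p = 0.00234) and COX5B (adjusted p = 0.000382) remained called after the exon junction correction, at 0.34, -1.18, 0.70 and -0.65. Those of KAT2A, HDAC3 and CARM1 were not called after it, at -0.17, 0.11 and -0.20, and the difference of HDAC3 was also lost without library B of DY131-treated DU145-Esrrb cells (-0.38, adjusted p = 0.0512). KLF4 was at 16.2 and 14.2 cpm in treated DU145-pc3.1 and at 17.2 and 16.0 cpm in treated DU145-Esrrb libraries, and its untreated values are given above. No group has 4 libraries, so no library was tested as far from the others.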

How the results depend on the processing

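The number of members called was 0 under all alternatives for Esrrb in untreated cells. It was 1 to 3 without single libraries for Esrrb in DY131-treated cells. For the interaction it was 1 to 3 without single libraries, 3 with no filter and 2 with the exon junction correction. Over all genes, Esrrb in untreated cells gave 317 calls with DESeq2, 948 with no filter and 1209 with only the libraries compared. It gave 140 to 194 without 1 untreated library, 1519 or 1523 without 1 treated DU145-pc3.1 library, 368 without library A and 372 without library B. DY131 in DU145-pc3.1 cells gave 3418 to 5548 without single libraries, the lowest without DU145-pc3.1 replicate 1, and the interaction 2897 with DESeq2.

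The signs that turned belong to changes with no call, apart from HDAC3 (interaction 0.113 with the exon junction correction). In the order library totals, at least 10 counts in every library and only the libraries compared, ESRRA was at -0.014, -0.033 and -0.025 and NCOA2 at -0.003, -0.022 and -0.015 for Esrrb in DY131-treated cells. For DY131 in DU145-Esrrb cells ESRRA was at -0.048 with library totals and -0.022 with at least 10 counts. Corrected for length and GC, NRIP1 was at -0.06 for DY131 in DU145-pc3.1 cells and ESRRA at 0.125 in the interaction. Without single libraries, values ranged from -0.086 to 0.001 (PPRC1) and -0.055 to 0.065 (NCOA1) for Esrrb in untreated cells, and from -0.047 to 0.044 (ESRRA, -0.043 without library A) and -0.067 to 0.084 (NCOA2) for Esrrb in DY131-treated cells. They ranged from -0.03 to 0.054 (ESRRA, 0.051 without DU145-Esrrb replicate 2, -0.028 without library A) for DY131 in DU145-Esrrb cells. For ESRRB they ranged from -3.62 to 2.30 for DY131 in DU145-pc3.1 cells and from -1.57 to 4.36 in the interaction. The cause was not tested.

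The replicate numbers are known for 6 libraries, and nothing says that they pair them (correlations of deviations 0.0917, 0.0229 and -0.0685). With the replicate block in these 6, Esrrb in untreated cells gave 397 calls and DY131 in DU145-pc3.1 cells 4901, against 370 and 4762 without it. It called 0 and 2 members, as many as without it. Depth limits PPARGC1A, ESRRG and the control side of ESRRB.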
